A study of Mus musculus with 6 samples.

Results

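The lateral amygdala expressed 7 GABA-A receptor subunit genes in all groups of a Baf53b siRNA study, with Gabra3 highest and Gabrd lowest in every library. None of the 7 differed detectably between Baf53b siRNA, scrambled siRNA and control tissue. Gabrb2 was higher in every library numbered replicate 1 than in every library numbered replicate 2, whatever the group. So were Gabrd and, by smaller differences, Gabra4 and Gabrb1. How many of all genes tested split in this way was not counted, and 67.1% of them had a positive difference of replicate 1 minus replicate 2. The genes described are Gabra2, Gabra3, Gabra4, Gabra5, Gabrb1, Gabrb2 and Gabrd, taken by symbol from tables of 50383 genes. All 7 symbols were found, and all 7 passed the filter on low values.

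Each library held messenger RNA of lateral amygdala from male 129xC57BL/6 hybrid mice 2 to 3 months old. There were 2 libraries of mice given Baf53b siRNA the day after training, 2 of mice given scrambled siRNA and 2 of control mice, and the labels do not say what the controls received. The protocol names 4 mice without saying whether these were pooled for a library, so p-values measure the spread between libraries only. BAF53b, encoded by Actl6b, is a neuron-specific subunit of a nucleosome remodelling complex, and the study asked about its part in fear memory.

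GABA-A receptors are chloride channels assembled from several subunits, and they carry most fast inhibition in the forebrain. Alpha and beta subunits together form the GABA binding site. A gamma subunit usually completes synaptic receptors, while a delta subunit completes extrasynaptic receptors that carry a tonic current. In the amygdala these receptors are known as the site at which benzodiazepines act on fear and anxiety.

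FPKM, the deposited unit, is the number of fragments per kilobase of transcript scaled to the fragments of the library. It is per length, so levels of different genes can be set side by side. The deposited intervals give between 6.42 M and 10.7 M fragments per library, and between 261 and 2127 fragments per member and library. Counting error on 1 value was 2.17% to 3.78% for Gabra2, Gabra3, Gabra4, Gabra5 and Gabrb2, 3.46% to 5.65% for Gabrb1 and 5.24% to 6.20% for Gabrd. Of the markers of the basolateral amygdala, Lmo3 stood between 148 and 173 FPKM, while Rspo2 stood between 0.963 and 3.41 FPKM. Actl6b, the siRNA target, had 42.8 and 39.6 FPKM with Baf53b siRNA, 43.8 and 43.9 FPKM with scrambled siRNA and 42.9 and 44.1 FPKM in control. Actl6b with Baf53b siRNA differed by -0.088 on the log2 scale relative to scrambled siRNA (95% interval -0.38 to 0.21, limma adjusted p = 1), and a lower level of the target messenger was not detectable.

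The members lie on 5 chromosomes in the mm10 coordinates of the deposited tables. On chromosome 5, Gabra2 spans 70957597 to 71095849 on the minus strand, Gabra4 spans 71569749 to 71658308 on the minus strand and Gabrb1 spans 71658113 to 72149037 on the plus strand. Gabra4 and Gabrb1 overlap by 196 bases at their 5′ ends. Gabra5 spans 57407672 to 57510059 of chromosome 7 on the minus strand. The kit was stranded, but the strand setting of the counting is not given in the sources used here, so reads where genes overlap may be split between them. Gabrb2 spans 42419757 to 42629028 of chromosome 11 on the plus strand. Gabra3 spans 72432681 to 72656848 of chromosome X and Gabrd spans 155384980 to 155398112 of chromosome 4, both on the minus strand.

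Start regions are shown for Gabra4 and Gabrb1, whose levels varied together and whose 5′ ends meet, and for Gabrb2, which varied most. They are from RefSeq on GRCm38.p6, from 250 bases before to 50 after an annotated start, written 5′ to 3′ on the gene's strand in lower case, with a matched motif in capitals. The windows are chr5:71658259-71658558 (minus) for Gabra4, chr5:71657671-71657970 (plus) for the first start of Gabrb1 and chr11:42420190-42420489 (plus) for Gabrb2.
Gabra4: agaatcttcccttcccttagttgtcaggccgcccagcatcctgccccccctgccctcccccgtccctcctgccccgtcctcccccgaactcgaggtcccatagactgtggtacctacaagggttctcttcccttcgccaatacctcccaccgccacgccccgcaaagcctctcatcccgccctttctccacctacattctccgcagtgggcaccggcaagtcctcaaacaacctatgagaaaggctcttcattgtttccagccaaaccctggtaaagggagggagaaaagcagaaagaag
Gabrb1: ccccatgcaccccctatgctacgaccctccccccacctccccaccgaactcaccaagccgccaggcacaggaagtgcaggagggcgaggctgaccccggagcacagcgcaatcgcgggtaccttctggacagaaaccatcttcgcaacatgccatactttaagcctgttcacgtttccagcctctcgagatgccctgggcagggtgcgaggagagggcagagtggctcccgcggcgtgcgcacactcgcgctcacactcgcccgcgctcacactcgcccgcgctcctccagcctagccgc
Gabrb2: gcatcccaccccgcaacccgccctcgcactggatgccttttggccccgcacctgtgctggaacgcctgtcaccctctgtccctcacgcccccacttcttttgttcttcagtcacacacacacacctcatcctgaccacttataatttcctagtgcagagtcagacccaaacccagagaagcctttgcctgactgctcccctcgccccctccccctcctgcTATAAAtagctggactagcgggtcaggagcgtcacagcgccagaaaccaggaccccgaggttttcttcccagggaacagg
The start of Gabra4 lies 387 bases inside Gabrb1, measured from the first start of Gabrb1, and the 2 genes are on opposite strands. Searched on both strands, TATAAA (the TATA box motif) was in a window of Gabrb2, as capitals show. The motif was also in windows of Gabra3, there on the strand opposite to the gene. It was in 13.6% of all 32851 start windows and in 3 of the 10 windows of the members, of which the 2 of Gabra3 overlap and hold the same site. TGACGTCA (the cAMP response element) was in 1.79% of all windows and TGACTCA (the AP-1 motif) in 5.20%, and neither was in a window of the members. The table had windows for 6 of the 7 members.

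The 4 alpha genes made up most of the members' signal. Gabra3, whose subunit is known in amygdala and monoaminergic neurons, had 109.6 and 99.7 FPKM with Baf53b siRNA, 108.8 and 106.5 FPKM with scrambled siRNA and 104.3 and 107.0 FPKM in control. It was the highest of the 7 in all 6 libraries, and its groups overlapped. Gabra2, whose subunit is tied to the anxiety-relieving action of benzodiazepines in mice, had 60.3 and 62.8 FPKM with Baf53b siRNA, 56.7 and 65.6 FPKM with scrambled siRNA and 61.5 and 61.4 FPKM in control. Its control values lay between the Baf53b siRNA values. Gabra4, whose subunit joins delta in extrasynaptic receptors that classical benzodiazepines do not modulate, had 38.9 and 34.0 FPKM with Baf53b siRNA, 39.4 and 36.1 FPKM with scrambled siRNA and 36.4 and 34.4 FPKM in control. The replicate 1 library was the higher in each group. Gabra5, whose subunit is largely extrasynaptic and best known in hippocampus, had 32.1 and 31.7 FPKM with Baf53b siRNA, 34.6 and 34.3 FPKM with scrambled siRNA and 30.3 and 38.0 FPKM in control. The Baf53b siRNA values lay under both scrambled siRNA values but inside the range of control, which holds the lowest and the highest value of this gene.

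The beta genes and the delta gene differed more between libraries. Gabrb2, encoding a beta subunit sensitive to etomidate, had 65.4 and 39.9 FPKM with Baf53b siRNA, 69.8 and 42.5 FPKM with scrambled siRNA and 62.7 and 42.7 FPKM in control. The 3 replicate 1 libraries were all high and the 3 replicate 2 libraries all low, and the 3 groups overlapped. Gabrb1, encoding the beta subunit least sensitive to etomidate, had 24.8 and 20.3 FPKM with Baf53b siRNA, 25.4 and 21.6 FPKM with scrambled siRNA and 22.2 and 21.6 FPKM in control. The spread was smaller than that of Gabrb2 and ran the same way within each group. Gabrd, encoding the delta subunit of neurosteroid-sensitive extrasynaptic receptors, had 11.9 and 8.32 FPKM with Baf53b siRNA, 12.2 and 8.27 FPKM with scrambled siRNA and 12.2 and 7.56 FPKM in control. Like Gabrb2 it split by replicate number and not by group.

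**Figure D1:**
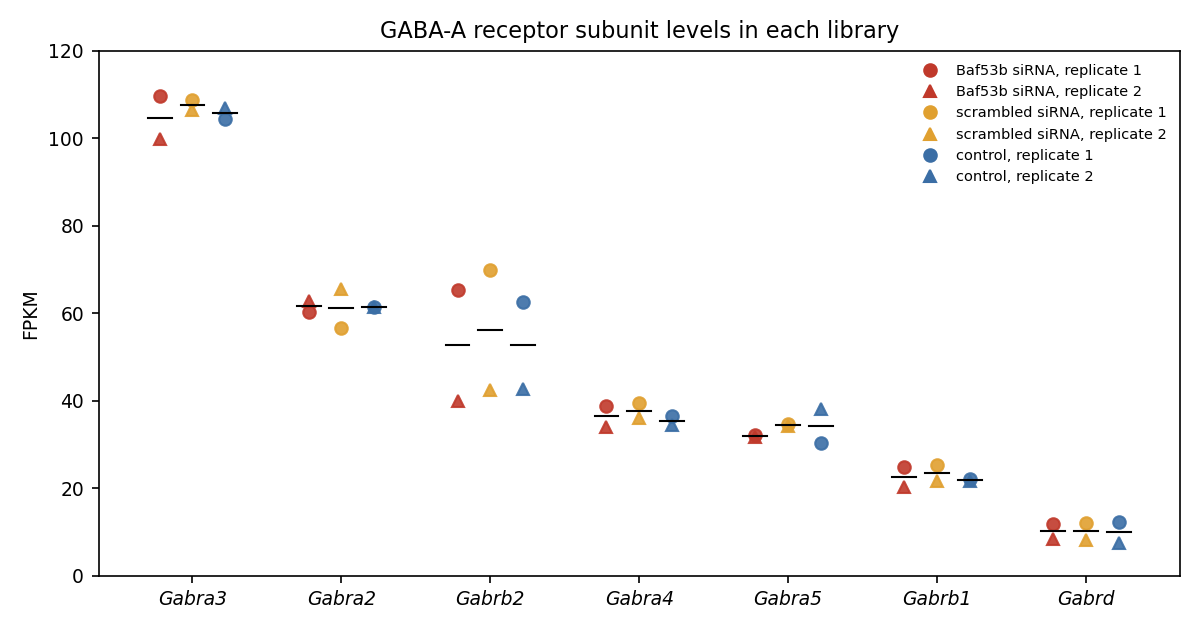
FPKM of the 7 GABA-A receptor subunit genes (y axis, linear) in each library. Colours give the group, circles replicate 1, triangles replicate 2 and bars the mean of 2 libraries; Gabra3 is on top at 99.7 to 109.6 FPKM, and for Gabrb2 and Gabrd the circles stand clear of the triangles in all 3 groups.

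By level the order was Gabra3, then Gabra2 and Gabrb2, then Gabra4 and Gabra5, then Gabrb1 and Gabrd. Gabra3, Gabrb1 and Gabrd held ranks 1, 6 and 7 in all 6 libraries. Gabrb2 ranked 2 and Gabra2 ranked 3 in the 3 replicate 1 libraries, and these ranks were exchanged in the 3 replicate 2 libraries. Gabra4 ranked 4 and Gabra5 ranked 5 except in control replicate 2, where they were exchanged. Only those 2 pairs of neighbours had ranges that overlapped over the 6 libraries, and neither kept a single order in all of them. Within a replicate number Gabra2 and Gabrb2 did not overlap. They stood at 56.7 to 61.5 and 62.7 to 69.8 FPKM in replicate 1 libraries. In replicate 2 libraries they stood at 61.4 to 65.6 and 39.9 to 42.7 FPKM. Ranking by the lower or by the upper bound of the deposited intervals gave the same ranks. Against the 14664 genes tested, the mean level of Gabra3 was above that of 95.5% of genes and that of Gabrd above 52.1%.

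Of the other subunit genes, Gabrg1 stood between 8.21 and 11.3 FPKM, Gabrg3 between 4.71 and 5.70 FPKM and Gabrq, the theta subunit, between 1.11 and 1.78 FPKM. Gabra6, Gabre, Gabrr1, Gabrr2 and Gabrr3 stayed at or under 0.261 FPKM in each library and Gabrp was listed at 0. Gabrd and Gabrg1 exchanged ranks by replicate number, with Gabrd above Gabrg1 in the replicate 1 libraries only. Of 12 other subunit genes listed 6 passed the filter, and 0 of those 6 were called in any comparison.

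Baf53b siRNA against scrambled siRNA compares the targeting siRNA with one of scrambled sequence. Of the 7 members 0 were called (limma, Benjamini-Hochberg adjusted p under 0.05), where 0.123% of the 14664 genes tested were called, 18 higher and 0 lower. The members' log2 differences ran from -0.11 to 0.013 with a median of -0.052, against a median of 0.0026 over all genes tested. Adjusted p was 1 for each member, and the smallest unadjusted limma p was 0.495, for Gabra5. Gabra5 averaged 31.9 ± 0.266 FPKM with Baf53b siRNA and 34.4 ± 0.263 FPKM with scrambled siRNA (SD, n = 2 each), a log2 difference of -0.11 (SE 0.15). The 95% interval for Gabra3 ran from 21.5% lower to 20.3% higher on the FPKM + 1 scale, while that for Gabrb2 ran from 44.9% lower to 59.9% higher. The Gabrb2 interval includes the difference between its replicate numbers. With the replicate number as a block it was -0.30 to 0.12 on the log2 scale, with an SE of 0.084 against 0.33 without the block, and the call did not change.

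With Baf53b siRNA against control, 0 of 7 members were called, where 1.23% of genes were called, 181 higher and 0 lower. The members' log2 differences ran from -0.085 (Gabra5) to 0.043 (Gabrd), and their median was 0.0017 against 0.038 over all genes tested. Adjusted p was 1 for each member and the smallest unadjusted limma p was 0.582. Gabra2 averaged 61.6 ± 1.82 FPKM with Baf53b siRNA and 61.5 ± 0.0307 FPKM in control (SD, n = 2 each). With scrambled siRNA against control, 0 of 7 members and 0% of genes were called, and 325 genes had an unadjusted limma p under 0.05. The members' log2 differences ran from -0.011 (Gabra2) to 0.095 (Gabrb1), with a median of 0.054 against 0.041 over all genes tested. The 3 comparisons share libraries, so they are not independent. In tissue RNA, fewer cells of a type and less RNA per cell cannot be told apart.

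**Figure D2:**
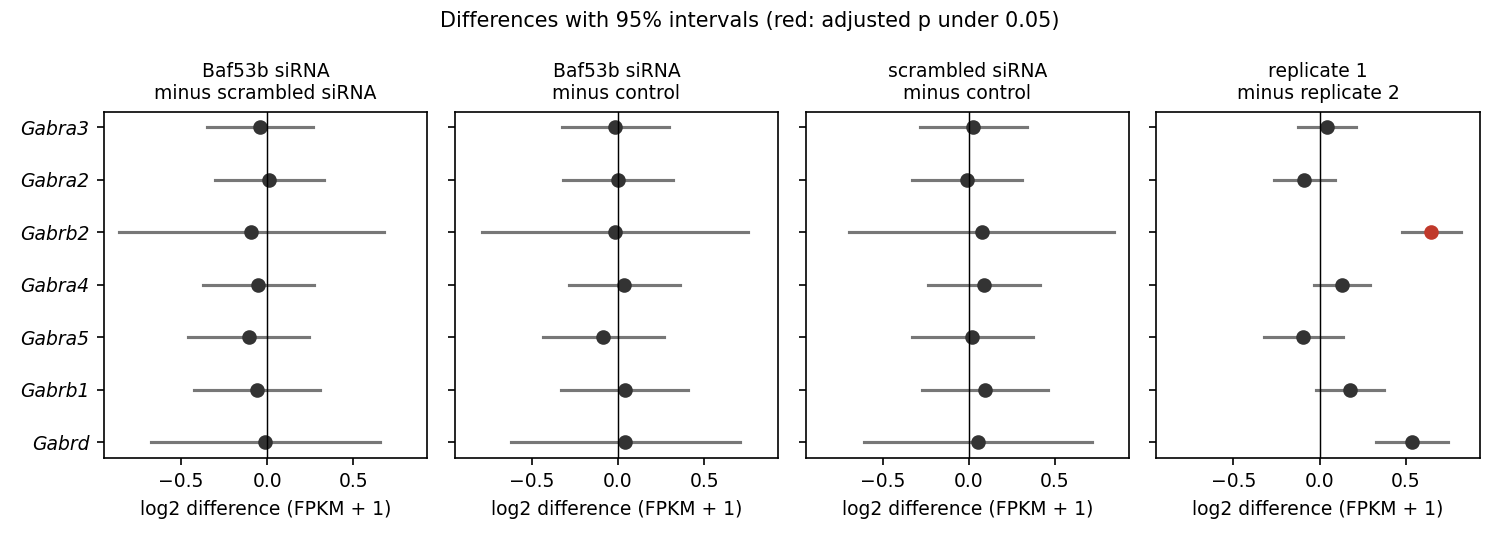
Log2 difference in FPKM + 1 (x axis) of each subunit gene with its 95% interval, in 1 panel per comparison, red where limma's adjusted p is under 0.05. In the 3 group comparisons every interval crosses 0, and in the panel for replicate 1 minus replicate 2 Gabrb2 stands at 0.65 and is the only gene in red.

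The makeup of the subunit pool was also compared, since a share within a library does not depend on the rest of that library. The 4 alpha genes summed to 241 and 228 FPKM with Baf53b siRNA, 239.6 and 242 FPKM with scrambled siRNA and 232 and 241 FPKM in control. Alpha over beta was 2.67 and 3.79 with Baf53b siRNA, 2.52 and 3.78 with scrambled siRNA and 2.74 and 3.75 in control. The ratio was thus low in the replicate 1 libraries and high in the replicate 2 libraries of each group. Gabra3 gave 32.0% and 33.6% of the pool with Baf53b siRNA, 31.4% and 33.8% with scrambled siRNA and 31.7% and 34.2% in control. Its share was the higher in the replicate 2 library of each group, while that of Gabra4 stayed between 11.0% and 11.5%. Between Baf53b siRNA and scrambled siRNA no share had an exact permutation p under 0.667, where 2 libraries against 2 cannot give less than 0.333. Between Baf53b siRNA and the other 4 libraries the smallest exact permutation p was 0.667 (adjusted 1 over the 7 shares), where the design cannot give less than 0.0667.

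**Figure D3:**
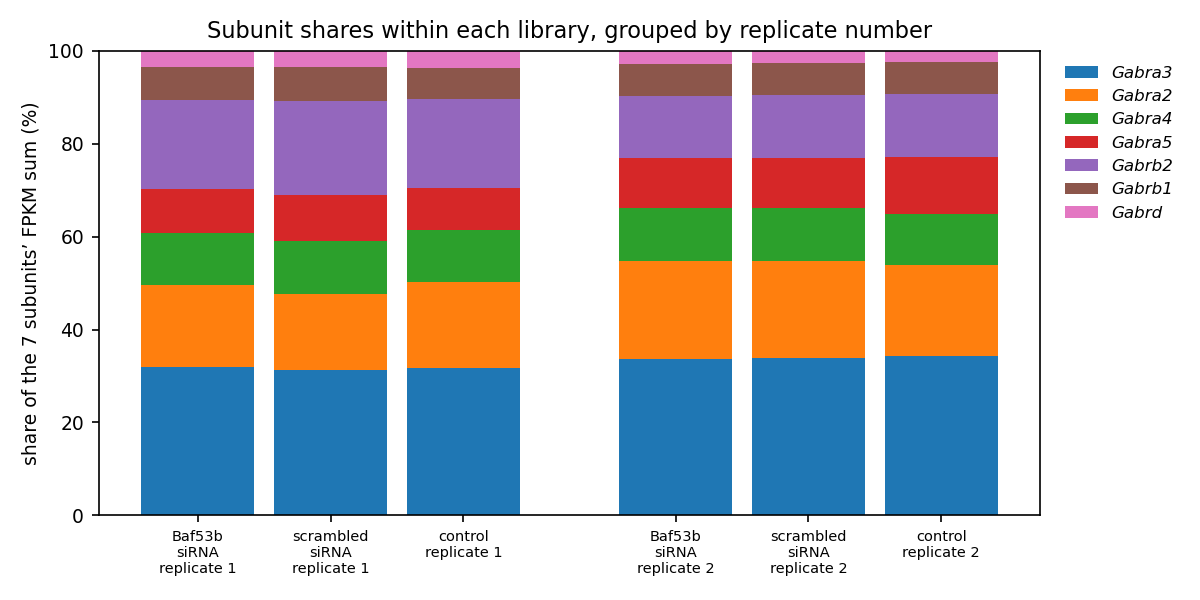
Share of each gene in the summed FPKM of the 7 subunit genes (y axis, percent) in each library, with the replicate 1 libraries on the left and the replicate 2 libraries on the right. The Gabrb2 segment is 19.0% to 20.1% in the replicate 1 libraries and 13.5% to 13.7% in the replicate 2 libraries.

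Replicate number was taken as a term beside the groups after the split in Gabrb2 and Gabrd had been seen, so the following values describe that split and do not test it independently. The labels do not say what a shared number stands for. Gabrb2 averaged 65.9 ± 3.62 FPKM in replicate 1 libraries and 41.7 ± 1.55 FPKM in replicate 2 libraries (SD, n = 3 each), a log2 difference of 0.65 (95% interval 0.48 to 0.82). The lowest deposited interval of Gabrb2 reached down to 59.0 FPKM in replicate 1 libraries. In replicate 2 libraries the highest reached up to 44.9 FPKM, so these intervals did not meet. The limma adjusted p of Gabrb2 was 0.0472, just under the threshold, and 1 of 7 members was called where 0.327% of genes were (44 higher, 4 lower). At an unadjusted limma p under 0.05 the number was 3914 genes. Of all genes tested 97.9% had a smaller difference in either direction. The exact permutation p over libraries was 0.1, the smallest that 3 against 3 can give.

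The call of Gabrb2 depends on the scaling. Its difference exceeded the median of all genes by 0.55 with FPKM as deposited and by 0.54 with upper quartile scaling, which moved that median to -0.012 from 0.095. Adjusted p (limma) was 0.0845 with upper quartile scaling, 0.0641 with quantile normalization, 0.0832 when the mitochondrial chromosome was left out of the scaling and 0.0514 when scaled to pan-neuronal markers. Leaving out the Baf53b siRNA libraries gave a limma adjusted p of 0.112 and leaving out the scrambled siRNA libraries 0.281, each with a log2 difference of 0.62 on fewer libraries. Leaving out the control libraries gave a limma adjusted p of 0.0440, with a log2 difference of 0.70. The limma adjusted p also stayed under the threshold with a pseudocount of 0.1 (0.0489) and with a mean FPKM of at least 5 (0.0363).

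Gabrd averaged 12.1 ± 0.177 FPKM in replicate 1 libraries and 8.05 ± 0.423 FPKM in replicate 2 libraries (SD, n = 3 each). Its log2 difference of 0.53 (SE 0.084) had a limma adjusted p of 0.0563, over the threshold, though the values did not overlap. Gabra4 and Gabrb1 also did not overlap between the numbers, at log2 differences of 0.13 and 0.18 with limma adjusted p of 0.265 and 0.221. How many of all genes tested also did not overlap was not counted, so the non-overlap of members has no background here. Of all genes tested 67.1% had a positive difference, as did 5 of the 7 members. Gabra2, Gabra3 and Gabra5 overlapped, with log2 differences of -0.088, 0.043 and -0.096. Gabrg1, which is not among the 7, had a log2 difference the other way, at -0.30 (limma adjusted p = 0.0989). Gabrb2 over Gabrb1, a ratio of both beta members, was 2.63 to 2.83 in replicate 1 libraries and 1.97 to 1.98 in replicate 2 libraries.

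Other features of the libraries moved with the replicate number. Estimated fragments were 7.66 M and 8.51 M with Baf53b siRNA and 6.42 M and 10.7 M with scrambled siRNA. In control they were 8.93 M and 10.3 M, so the replicate 2 library was the deeper in each group. Mitochondrial genes held 19.3% and 22.8% of the FPKM sum with Baf53b siRNA, 15.0% and 26.9% with scrambled siRNA and 19.4% and 29.5% in control, so the replicate 2 library was the higher in each group. Over 14626 genes the replicate difference had a Pearson correlation of 0.36 with the GC content of the longest transcript, a description over genes that are not independent. Gabrb2 is at 44.0% GC and Gabrd at 54.7%, on either side of the median of 49.5%. Of the 48 genes called by replicate number 20 are pseudogenes, which are 6.29% of the genes tested. The part of these features in the Gabrb2 and Gabrd values was not tested.

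Among pairs of members, Gabra4 and Gabrb1 had the highest correlation. Gabra4 over Gabrb1 was 1.57 and 1.67 with Baf53b siRNA, 1.55 and 1.67 with scrambled siRNA and 1.64 and 1.60 in control, a span of 1.08-fold. Over the 6 libraries their levels had a Pearson r of 0.97 and a Spearman rho of 1 (exact permutation p = 0.00278 for each, adjusted 0.0389 and 0.0583 over 21 pairs of members). Without the 2 libraries farthest from the median of Gabrb1 the r was 0.82, and within replicate numbers it was 0.91. The permutations shuffled all 6 libraries, so the split of both genes by replicate number enters these p-values. Gabrb2 with Gabra4 and with Gabrb1 had the same adjusted exact permutation p for Pearson r, 0.0389. Gabrb2, on chromosome 11, falls into separate clusters by replicate number, and within the numbers it also had high values with both, at r of 0.80 with Gabra4 and 0.90 with Gabrb1. Gabra2, on chromosome 5 like Gabra4 and Gabrb1, had r of -0.67 with Gabra4 and -0.78 with Gabrb1 (adjusted exact permutation p = 0.281 and 0.167). High values also occurred outside the neighbouring pair, and the part of gene position in any of these values was not tested. The pair was singled out as the highest of 21, and both genes of a library share its depth and scaling. Gabrd over Gabrb2 lay between 0.174 and 0.208 in the 6 libraries. Those 2 genes form 2 separate clusters of 3 libraries by replicate number. Their Pearson r was 0.97 over the 6 libraries and -0.33 within replicate numbers. Too few libraries lie in each cluster to read any of the correlations within replicate numbers closely.

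**Figure D4:**
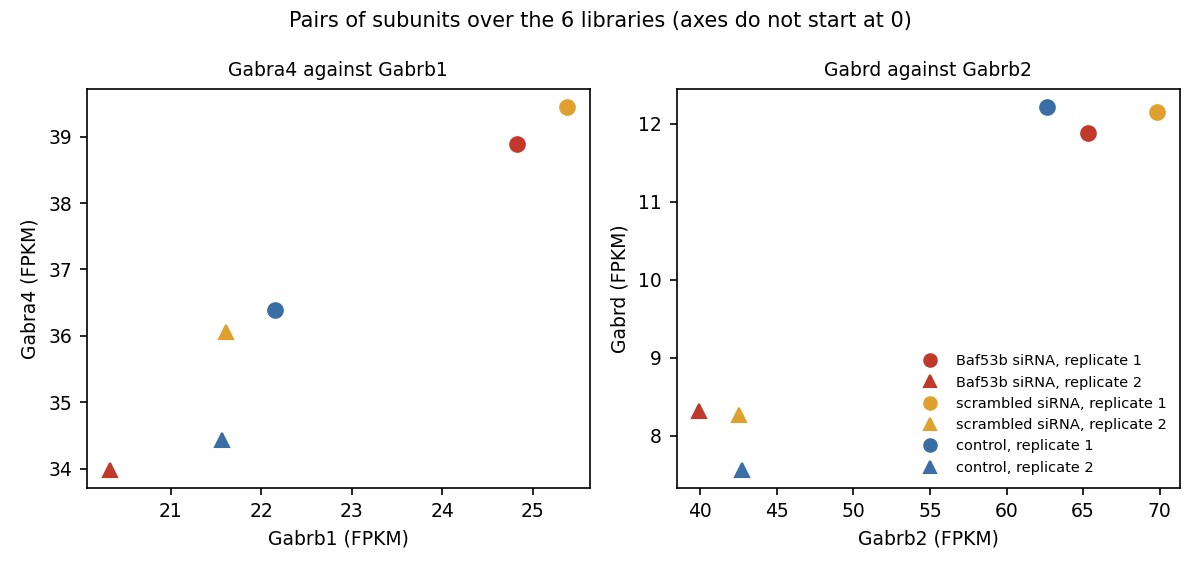
FPKM of Gabra4 against Gabrb1 and of Gabrd against Gabrb2 over the 6 libraries, with colours for the group, circles for replicate 1 and triangles for replicate 2. Gabra4 and Gabrb1 lie along a line, while in the other panel the circles and triangles form clusters, with Gabrb2 at 62.7 to 69.8 FPKM in replicate 1 libraries and 39.9 to 42.7 FPKM in replicate 2 libraries.

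The genes whose levels were most like the summed level of the 7 members over the 6 libraries were Pacsin1, Cdipt, Csnk1g2, Gm4705 and Slc25a44, with Pearson r of 0.997, 0.996, 0.995, 0.995 and 0.994. They are the 5 highest of the 14664 genes tested. Pacsin1, an endocytic adaptor of neurons, had 114 and 90.6 FPKM with Baf53b siRNA, 116 and 99.3 FPKM with scrambled siRNA and 105 and 99.0 FPKM in control. The summed level itself was 343 and 297 FPKM with Baf53b siRNA, 347 and 315 FPKM with scrambled siRNA and 330 and 313 FPKM in control. Both were higher in the replicate 1 library of each group.

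In the other lists of the GABA pathway 0 genes were called in the 3 group comparisons, where 0.123%, 1.23% and 0% of all genes tested were called. Of genes that make, break down and transport GABA, 7 were tested. Gad1, which makes GABA, had 92.6 and 92.8 FPKM with Baf53b siRNA, 94.9 and 100.4 FPKM with scrambled siRNA and 101.1 and 88.5 FPKM in control. Abat, the transaminase that breaks GABA down, stood between 54.6 and 64.3 FPKM.

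Of the scaffold and trafficking genes of inhibitory synapses 22 were tested. Gabarapl1, a relative of the GABA-A receptor-associated protein, had 399 and 288 FPKM with Baf53b siRNA, 398 and 326 FPKM with scrambled siRNA and 389 and 326 FPKM in control. Nsf, a fusion ATPase that binds beta subunits, stood between 181 and 250.5 FPKM, and Hap1, a receptor-trafficking adaptor, between 137 and 196 FPKM. By replicate number 19 of the 22 had a positive difference, as did 67.1% of all genes tested, and their median was 0.19 against 0.095 over all genes, with 0 called. Nlgn3, a postsynaptic adhesion protein chosen after its values were seen, had the smallest adjusted p of this list, 0.0557 in limma, at a log2 difference of 0.49.

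Of the chloride transport genes 5 were tested. Slc12a5, the cotransporter that keeps neuronal chloride low, had 116 and 97.0 FPKM with Baf53b siRNA, 125 and 101.2 FPKM with scrambled siRNA and 124 and 92.5 FPKM in control. Its replicate 1 library was the higher in each group (log2 difference 0.33, limma adjusted p = 0.0669). Car2, a carbonic anhydrase, stood between 63.5 and 72.7 FPKM. For GABA-B receptors, the metabotropic kind, Gabbr1 stood between 186 and 213 FPKM, Gabbr2 between 66.3 and 83.8 FPKM and their auxiliary subunit Kctd16 between 11.9 and 23.3 FPKM, and 0 of the 5 genes listed were called.

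Markers of neurons gave no call in the group comparisons either. The 18 inhibitory markers summed to 425 and 437 FPKM with Baf53b siRNA, 447 and 450.1 FPKM with scrambled siRNA and 448 and 454 FPKM in control. Sst, the somatostatin gene, stood between 211 and 227 FPKM, Npy between 61.0 and 72.0 FPKM and Lamp5 between 24.4 and 34.6 FPKM. The Baf53b siRNA sums of inhibitory markers lay under all others, and the median log2 difference of these markers was -0.046 against scrambled siRNA and -0.10 against control. The 10 pan-neuronal markers tested summed to 2361 and 2105 FPKM with Baf53b siRNA, 2373 and 2332 FPKM with scrambled siRNA and 2297 and 2324 FPKM in control, led by Snap25 at 735 to 841 FPKM. The 10 excitatory markers tested had median log2 differences of -0.074 against scrambled siRNA and -0.064 against control, and Slc17a7, the vesicular glutamate transporter of cortical-type neurons, stood between 288 and 410.3 FPKM. The 4 basolateral amygdala markers had a median log2 difference of -0.31 against scrambled siRNA, with 0 of 4 positive, and of -0.16 against control, with 1 of 4 positive and 0 called in either. Their part in the subunit values was not tested.

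Glial markers differed between the groups in the same libraries. The 12 microglia markers summed to 1166 and 959 FPKM with Baf53b siRNA, 646 and 637 FPKM with scrambled siRNA and 365 and 359 FPKM in control. With Baf53b siRNA against control all 12 had positive differences and 9 were called, where 1.23% of all genes tested were called. Among the 9 were Ctss (log2 difference 2.01) and C1qa (log2 difference 2.05). With Baf53b siRNA against scrambled siRNA 0 of the 12 were called, though all 12 were positive (median 0.66). With scrambled siRNA against control all 12 were also positive (median 0.87) and 0 were called. Gfap, a protein of reactive astrocytes, had 169.9 and 178 FPKM with Baf53b siRNA, 45.1 and 47.3 FPKM with scrambled siRNA and 16.9 and 18.3 FPKM in control. It rose with Baf53b siRNA against scrambled siRNA (log2 difference 1.89, limma adjusted p = 0.0111) and against control (log2 difference 3.23, limma adjusted p = 0.000553). Aqp4, the water channel of astrocytes, also rose against control (log2 difference 0.80, limma adjusted p = 0.0446). Among markers of neighbouring regions 1 was called, Prkcd, which marks a class of central amygdala neurons, at 6.28 and 8.93 FPKM with Baf53b siRNA and 3.14 and 2.46 FPKM in control (log2 difference 1.17, limma adjusted p = 0.0477). Thalamic markers were low, with sums of 6.17 to 7.63 FPKM. The lists of oligodendrocytes, their precursors, endothelium and hippocampus had 0 genes called in the 3 comparisons. Oligodendrocyte markers summed to 1029 and 1017 FPKM with Baf53b siRNA, 1050.0 and 1123 FPKM with scrambled siRNA and 781 and 985 FPKM in control. With all genes scaled to the pan-neuronal markers, 35, 192 and 0 of the 14664 genes were called in the comparisons of Baf53b siRNA with scrambled siRNA, of Baf53b siRNA with control and of scrambled siRNA with control, and 0 of the 7 members were among them.

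**Figure D5:**
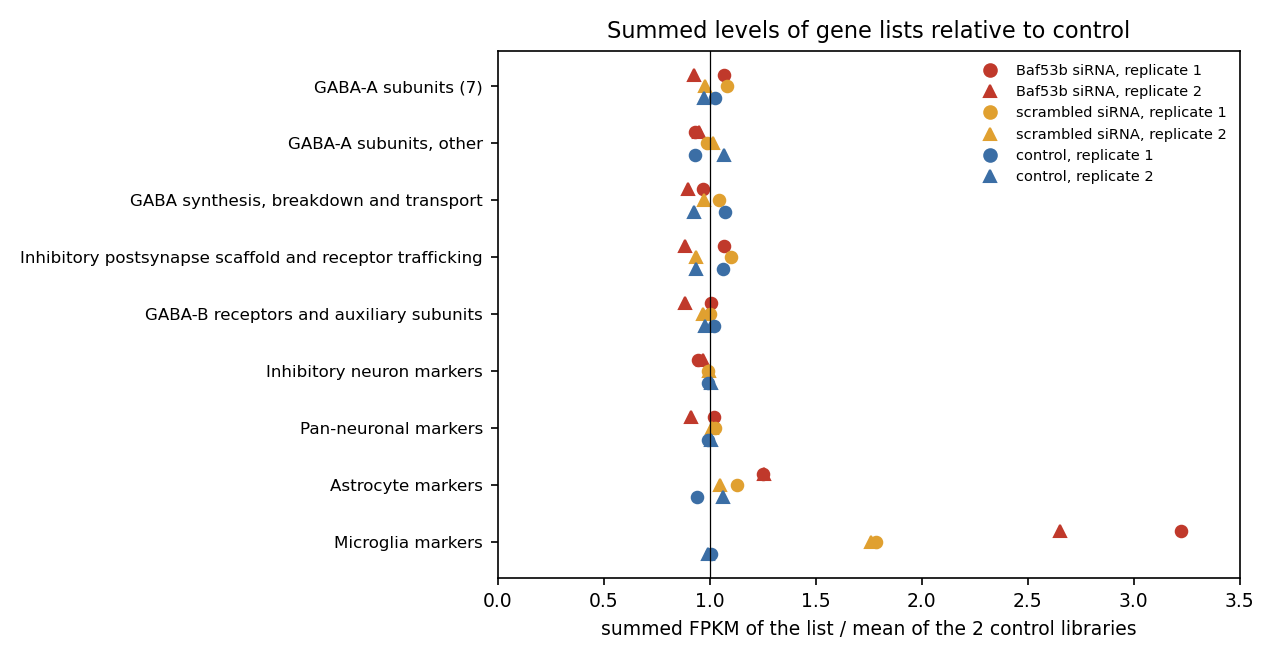
Summed FPKM of each gene list over the mean of the 2 control libraries (x axis, linear), 1 row per list, with colours for the group, circles for replicate 1 and triangles for replicate 2. The GABA lists and neuronal lists stay near 1 in all groups, and the microglia sums reach 1166 and 959 FPKM with Baf53b siRNA against 365 and 359 FPKM in control.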

How the data were processed

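Per the file headers, the authors deposited FPKM for every gene of a library, with a confidence interval and a status. Per the submitters' processing notes the tools were Cufflinks 2.2.1, TopHat2 2.1.1 and bcl2fastq 2.19.1.403, named in no order, with build mm10. The annotation and settings are not given in these sources. Gene types and transcripts came from GENCODE M21, which 50160 of the 50383 gene IDs matched. For 48 IDs several rows were summed, and 4 genes whose estimate had failed were dropped. Each fragment number was estimated by reading the deposited interval as 2 counting standard errors to either side, so it covers counting error only.

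The scale was log2(FPKM + 1), which understates the change of low genes. After a filter (mean FPKM of 1 or more) and removal of 353 small RNA genes, 14664 genes entered limma 3.58.1 (R 4.3.3), with a mean per group over all 6 libraries and eBayes with trend (3 residual degrees of freedom, prior 3.99). P-values were two-sided and adjusted after Benjamini and Hochberg, with calls under 0.05. A fit with replicate number as a term was added after the members' values had been seen (2 residual degrees of freedom, prior 3.57). Shares were compared by two-sided exact permutation tests over libraries. The limma script was tested on simulated data.

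The members and the gene lists were chosen with earlier results of these data known, so no list was tested. All members are named, and of each other list the 3 genes of highest mean FPKM and at most 5 called genes, apart from those said to be chosen later. Some genes under this rule are not reported here. The listed symbols Insyn1, Insyn2a and Tubb3 had no row of that name. Alternatives were other pseudocounts, filters, scalings and limma settings, small RNA genes kept, the compared groups alone, a replicate block, and each library left out in turn.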

Additional observations from a re-analysis of the deposited data

Results flagged for a closer look

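Among the deposited rows 92 are spike-ins, made outside the mouse genome. The labels say nothing of them, and no comparison here uses them. Their FPKM summed to 4825 and 811 with Baf53b siRNA and to 207 and 656 with scrambled siRNA, against 117 and 125 in control. All 4 siRNA libraries were thus above both control libraries. FPKM of the subunit genes was used as deposited, and the part of the spike-in rows in those values was not tested.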

How the results depend on the processing

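In the group comparisons 0 of 399 member-by-alternative values over 19 settings passed the threshold (smallest limma adjusted p = 0.714), 343 kept their direction and 56 changed sign, all within -0.44 to 0.43 log2. Ranks within a library could not move, since the alternatives keep the order of its genes or leave its values as they are. Differences in sums and shares moved with the setting and changed sign in some. Scaled to pan-neuronal markers, the summed FPKM was 0.027 log2 higher with Baf53b siRNA than with scrambled siRNA (-0.051 as deposited). Under that scaling it was 0.043 higher with Baf53b siRNA than in control (-0.0087 as deposited). With scrambled siRNA against control its difference was -0.021 without the mitochondrial chromosome and -0.0014 with quantile normalization (0.042 as deposited). The Gabrb2 share difference of Baf53b siRNA minus scrambled siRNA (-0.565 percentage points) ran from -3.87 to 2.74 with 1 library left out, and each of the other 6 shares also changed sign. Signs of single members changed as follows, in log2. Upper quartile scaling gave, with Baf53b siRNA against scrambled siRNA, -6.2e-05 for Gabra2; against control, -0.046 for Gabra2, -0.0096 for Gabra4, -0.0084 for Gabrb1 and -0.00088 for Gabrd; and, with scrambled siRNA against control, -0.0086 for Gabra3 and -0.013 for Gabra5. Scaling without the mitochondrial chromosome gave, in the same order, -0.0062 for Gabra2; -0.079 for Gabra2, -0.042 for Gabra4, -0.040 for Gabrb1 and -0.031 for Gabrd; and -0.036 for Gabra3, -0.040 for Gabra5 and -0.0026 for Gabrd. Scaling to pan-neuronal markers gave 0.036 for Gabra3, 0.024 for Gabra4, 0.017 for Gabrb1 and 0.059 for Gabrd; 0.036 for Gabra3 and 0.033 for Gabrb2; and -0.0041 for Gabra5. Quantile normalization gave -0.021 for Gabra2, -0.0063 for Gabrb1 and -0.035 for Gabrd with Baf53b siRNA against control, and -0.023 for Gabra3 and -0.014 for Gabra5 with scrambled siRNA against control. Leaving out 1 library at a time, values with Baf53b siRNA against scrambled siRNA ran from -0.090 to 0.12 for Gabra2, -0.11 to 0.026 for Gabra3, -0.15 to 0.043 for Gabra4, -0.20 to 0.081 for Gabrb1, -0.44 to 0.26 for Gabrb2 and -0.26 to 0.24 for Gabrd. With Baf53b siRNA against control they ran from -0.028 to 0.031 for Gabra2, -0.083 to 0.053 for Gabra3, -0.057 to 0.13 for Gabra4, -0.25 to 0.075 for Gabra5, -0.10 to 0.18 for Gabrb1, -0.37 to 0.33 for Gabrb2 and -0.27 to 0.36 for Gabrd. With scrambled siRNA against control they ran from -0.11 to 0.092 for Gabra2, -0.14 to 0.18 for Gabra5, -0.016 to 0.21 for Gabrb1, -0.28 to 0.43 for Gabrb2 and -0.26 to 0.37 for Gabrd. The lone library of a group was assumed to vary like the others. By replicate number Gabra3 was -0.080 with upper quartile scaling, -0.064 without the mitochondrial chromosome, -0.014 scaled to pan-neuronal markers, -0.081 with quantile normalization and -0.0029 without the Baf53b siRNA group, and Gabra5 was 0.016 without the control group. Gabrb2 missed the threshold at 0.52, 0.54, 0.59 and 0.54 under those 4 scalings and at 0.62 without the Baf53b siRNA or the scrambled siRNA group, and Gabrd passed it at 0.53 with a mean FPKM of at least 5. The number of genes called with Baf53b siRNA against scrambled siRNA was 1 with a pseudocount of 0.1 or 0.01, 0 with no filter, 8 with a mean FPKM of at least 5, 35 scaled to pan-neuronal markers, 30 with robust eBayes, 29 without trend, 5 with small RNA genes kept and 4 to 24 with 1 library left out. Against control it was 42 with no filter, 71 with a mean FPKM of at least 5 and 34 to 139 with 1 library left out. With scrambled siRNA against control it was 1 with a pseudocount of 0.01 or with the compared groups alone and 0 to 7 with 1 library left out. By replicate number it was 806 with a mean FPKM of at least 5, 26 with quantile normalization, 18 with upper quartile scaling, 19 without the mitochondrial chromosome and 12, 3 and 93 without the Baf53b siRNA, scrambled siRNA and control group. The cause of these moves was not tested. A replicate block is not given by the design: the deviations of replicate 1 from replicate 2 correlated over genes at 0.359 (Baf53b and scrambled siRNA), 0.183 (Baf53b siRNA and control) and 0.390 (scrambled siRNA and control). With the block no member was called, 13, 188 and 0 genes were called in the 3 comparisons, and the SE of Gabrb2 was 0.084 against 0.33 without it.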
